A study of Mus musculus with 8 samples.

Results

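The genes described here encode the proteins of the mitochondrial ribosome that carry an Mrpl or Mrps symbol. They were taken as every row of the expression table whose name began with Mrpl or Mrps followed by a digit, without the 5 rows described as pseudogenes. This gave 77 of 54091 rows, 48 named for the large subunit (Mrpl) and 29 for the small subunit (Mrps), and 76 of them were abundant enough to test. RNA was sequenced from the white part of the quadriceps, a mostly fast, glycolytic muscle of the thigh, of male mice of 11 to 14 weeks after 7 days on a diet with 60% fat (Research Diets D12492), with the muscle taken in the morning. The 4 Loxp libraries (numbered 1 to 4) had the genotype Loxp/Loxp. The 4 Cre libraries (numbered 5 to 8) were labelled CKM Cre, a knockout of Acot2 in muscle. Acot2 encodes a mitochondrial enzyme that splits acyl-CoA into fatty acid and coenzyme A, and CKM is muscle creatine kinase, whose promoter drives Cre in skeletal and heart muscle. Only knockout mice carried Cre, so its presence and the loss of Acot2 cannot be told apart. The sources used here name no strain. They do not say whether the libraries are from different animals, and the p-values below describe the spread between libraries, which may be technical.

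Mitochondria keep a small genome of their own, and its messenger RNAs are translated inside the organelle by a dedicated ribosome. The 2 ribosomal RNAs of that ribosome are encoded by mitochondrial DNA, whereas all of its proteins are encoded in the nucleus, made in the cytosol and imported. The small subunit decodes the messenger, and the large subunit joins the amino acids into the hydrophobic core subunits of the respiratory chain and ATP synthase. In muscle, the supply of these subunits goes with oxidative capacity.

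Acot2 was checked first. Its normalized counts, which are reads scaled for sequencing depth, were 2179.1, 3347.7, 4165.4 and 2166.2 in Loxp libraries 1 to 4 and 324.8, 273.4, 256.4 and 354.0 in Cre libraries 5 to 8, so all 4 Cre libraries lay below all 4 Loxp libraries. Depth was 55284021 to 109101280 reads per library and uneven between the groups. It was highest in Loxp 4 (109101280) and Loxp 3 (85095801) and lowest in Cre 6 (55284021) and Cre 8 (58359969). The other libraries had 69655893 to 74996035. Loxp 3 and Loxp 4 stood apart from the other libraries across the whole table: in 21.6% of the 15657 tested genes both lay below the other 6, and in 22.3% both lay above. Markers of fast fibres made up 16.5 to 19.8% of the counts in every library, and the list of slow-fibre markers 0.102 to 0.338%, highest in Loxp 3. That list also held Myh2, the myosin of fast oxidative fibres. Myh2 gave 143500 of its 238680 normalized counts in Loxp 3 and 80137.1 of 160550 in Cre 6, so the share does not measure slow fibres alone. Single fast-fibre markers differed in direction: of 10, Pvalb (0.81), Tnni2 (0.60), Mylpf (0.48) and Tnnt3 (0.19) had a higher log2 estimate in Cre and were lowest in Loxp 3 and 4, and the other 6 had a lower one, with Atp2a1 (-0.36) and Myh1 (-0.32) highest in Loxp 3 and 4. None of the 10 had an adjusted p under 0.05 by limma. Heart markers were 0.0182% of the counts in Cre 8 and 0.00145 to 0.00268% in the others. Of 3 markers of brown fat, Ucp1 was 1458.2 in Cre 5, 885.1 in Cre 8 and at most 133.4 elsewhere. Cidea was 927.9 in Cre 5, 858.2 in Cre 8 and at most 252.8 elsewhere. Dio2 was 377.2 in Cre 8, but its 155.1 in Cre 5 lay within the 106.5 to 304.2 of the other libraries. All 9 macrophage markers had a higher estimate in Cre, with a median log2 difference of 0.50, as had all 8 fibroadipogenic markers, with 0.46. The part of depth, of these cells and of fibre genes in the results that follow was not tested. In bulk tissue, fewer cells of a type and less RNA per cell cannot be told apart.

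The upstream regions of the genes are shown because they carry sequence matches that the choice of genes did not use. RefSeq windows on GRCm38.p6, from 250 bases before to 50 after the annotated start, were found for 68 of the 77 genes. The motif of nuclear respiratory factor NRF1, a regulator of nuclear genes for mitochondrial proteins, was searched on both strands in a form with 1 free base, seen in capitals in Mrpl45 and Mrpl12 below, and was present in 13 windows (19.1%, against 5.19% of all genes and 10.5% of tested genes with a window). The ETS motif CCGGAAG, bound by factors such as GABP, was present in 25 (36.8%, against 9.93% and 18.2%). The YY1 motif AAGATGGCG was present in 8 (11.8%, against 1.64% and 3.22%). TATAAA was present in 5 (7.35%, against 15.7% and 9.46%), CCAAT in 27 (39.7%, against 41.1% and 42.2%) and GGGCGG in 34 (50%, against 38.2% and 66.0%). A match describes the letters only. The windows of these genes also had a higher median GC content, 58% against 52.8% over all genes, and the shares were not adjusted for it. In the following stretches, which end at the base before the RefSeq start and run in the direction of the gene, capitals mark the NRF1 or ETS match. Mrpl52 has the largest difference among the genes described below (chr14:54426809-54426908, plus strand), Mrpl45 holds 3 NRF1 matches in its window, 2 of them in the bases printed (chr11:97315586-97315715, plus strand), and Mrpl12 encodes a protein reported to bind the mitochondrial RNA polymerase (chr11:120484537-120484636, plus strand). GENCODE starts Mrpl12 further upstream, so that 24 bases of its stretch lie in an exon of Mrpl12 there. The window of Mrpl52 holds 2 ETS matches, 1 of them in the bases printed.
Mrpl52: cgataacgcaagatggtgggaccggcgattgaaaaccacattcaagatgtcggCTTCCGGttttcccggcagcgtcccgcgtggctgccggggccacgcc
Mrpl45: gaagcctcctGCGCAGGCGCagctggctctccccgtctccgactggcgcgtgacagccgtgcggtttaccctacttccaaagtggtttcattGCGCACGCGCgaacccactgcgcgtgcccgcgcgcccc
Mrpl12: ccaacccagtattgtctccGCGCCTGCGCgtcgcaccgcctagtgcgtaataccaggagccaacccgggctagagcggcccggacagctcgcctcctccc

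In Loxp muscle the tested genes covered a wide range of levels. Per kb of exon, the mean normalized count over the 4 Loxp libraries had a median of 1184 and ran from 188 for Mrps10 to 9684 for Mrps21, both of the small subunit. Genes named for the large subunit had a median of 1451 per kb (287 to 6252) and those named for the small subunit 827 per kb (188 to 9684). With the longest transcript in place of all exons, these medians were 1937 and 1090. The lowest gene was then Mrpl19 (320.5), of the large subunit, and Mrpl2 (6359) was the highest of the large subunit. Mrps21 remained the highest of all, so the order of the other genes depends on the length used. Per kb of exon, the other highest genes were Mrpl34 (6252), Mrps28 (5614), Mrpl2 (5604) and Mrpl54 (4458). The other lowest ones were Mrps35 (192), Mrpl33 (287), Mrpl19 (294), Mrps30 (295) and Mrps25 (309). The sum of large-subunit counts was 2.24 ± 0.0478 times that of the small subunit in Loxp and 2.23 ± 0.0406 times in Cre (SD, n = 4 libraries each).

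**Figure D1:**
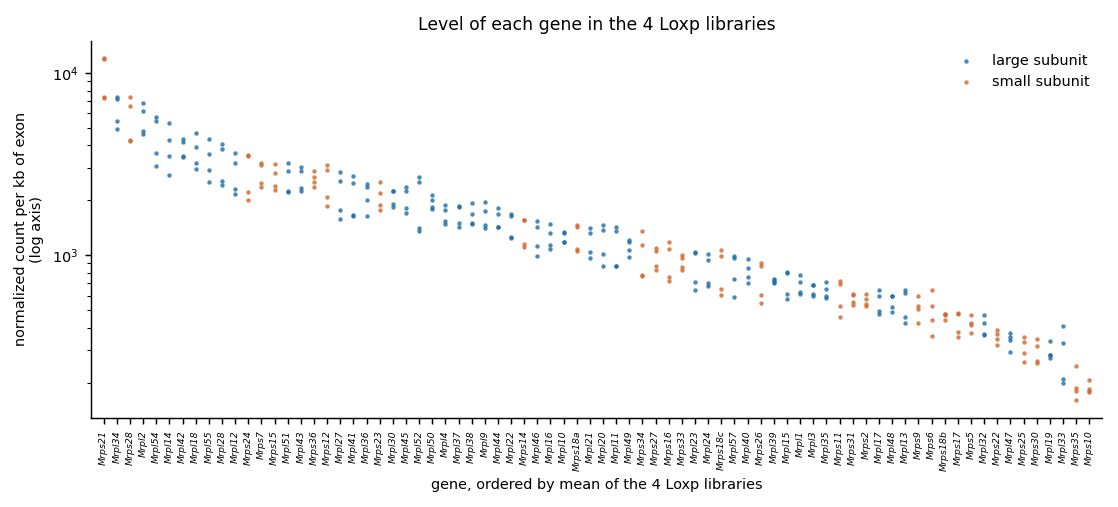
Normalized counts per kb of exon (y, log axis) of the 76 tested genes, ordered along x by their mean in the Loxp group; each point is 1 of the 4 Loxp libraries, blue for genes named for the large subunit and orange for the small subunit. Levels run from a mean of 9684 per kb for Mrps21 to 188 for Mrps10, and both subunits are spread over the range.

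Most of the genes had a higher estimate in Cre muscle, but none passed the threshold, and the size of the difference depended on Loxp 3 and Loxp 4 and on a trend with gene length and GC content. The estimate was above 0 for 72 of the 76 genes (94.7%, where 50.3% of all tested genes were above 0). The median log2 difference, Cre minus Loxp, was 0.34, with quartiles of 0.18 and 0.45 and a range of -0.26 to 0.74, against 0.0026 over all tested genes. It was 0.2278 with the length and GC trend removed from each library, 0.1369 without Loxp 3 and 4, and 0.1065 with both. By limma with Benjamini-Hochberg adjustment over all 15657 genes, 0 of the 76 had an adjusted p under 0.05 in either direction (0.0% of all tested genes were called higher and 0.00639% lower). With no adjustment, 46 genes had a p under 0.05 and a higher estimate (60.5%, against 13.6% of all tested genes), and 0 had a lower one (against 13.3%). At an adjusted p under 0.1 the count was 26 (against 5.94%). All 4 Cre values exceeded all 4 Loxp values in 12 genes (15.8%, against 6.06%), and the opposite held in 0 (against 7.06%). limma voom on the recovered reads also called 0 of the 76. The count rested on single Loxp libraries and on weights: without Loxp 1, 23 genes were called higher (5.54% of all tested genes were called higher and 5.46% lower), without Loxp 2, 30 (6.54% and 6.54%), and with array weights, 15 (3.79% and 3.88%), with 0 called lower in each.

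By library, Loxp 3 and 4 lay lowest and Cre 6, 7 and 8 highest. The median deviation of the 76 genes from their own mean, in log2, was 0.016 and 0.068 in Loxp 1 and 2, -0.35 and -0.41 in Loxp 3 and 4, 0.021 in Cre 5, and 0.19, 0.20 and 0.21 in Cre 6, 7 and 8. Loxp 3 and 4 were both below the other 6 libraries in 64 of 76 genes (84.2%, against 21.6% of all tested genes), and both above them in 0 (against 22.3%). Loxp 4 held the lowest value of 54 genes (71.1%, against 20% of all tested genes). Loxp 3 held that of 13 (17.1%, near the 15.8% of all tested genes). The family's share of all counts was 0.393 and 0.425% in Loxp 1 and 2, 0.321 and 0.294% in Loxp 3 and 4, and 0.406, 0.465, 0.454 and 0.474% in Cre 5 to 8. Cre 5 was the lowest of the Cre libraries in 46 genes (60.5%, against 29.1%). Cre 6 and 8 were both above Cre 5 and 7 in 34 genes (44.7%, against 22.6%) and both below them in 19 (25%, against 19.7%).

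**Figure D2:**
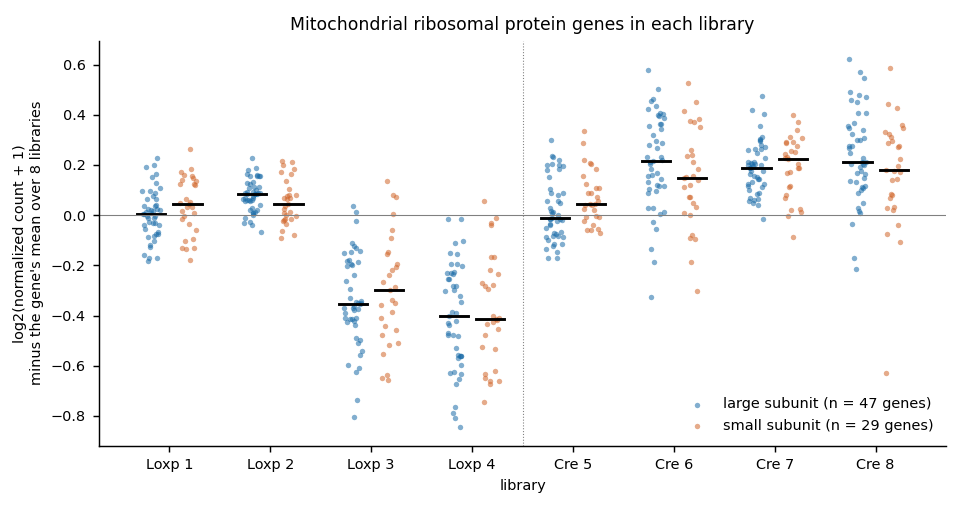
Deviation of each of the 76 genes from its own mean (y, log2 of normalized count + 1) in each of the 8 libraries (x); points are genes, blue for the large and orange for the small subunit, and black lines are medians. Loxp 3 and 4 lie lowest, with medians over all genes of -0.35 and -0.41, while Loxp 1, Loxp 2 and Cre 5 lie near 0 in both subunits.

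Against Loxp 1 and 2 alone, the median difference was 0.14 (range -0.29 to 0.35). The estimate was above 0 for 61 of 76 genes (80.3%, against 49.9% of all tested genes). A higher estimate with p under 0.05 before adjustment was found for 6 genes (7.89%, against 4.36%) and a lower one for 0 (against 3.62%). After adjustment limma called 0 (against 0.00639%), with a smallest adjusted p of 0.61. All 4 Cre libraries were above both Loxp 1 and 2 in 13 genes (17.1%, against 8.74%) and below both in 1, Mrpl30 (1.32%, against 9.42%). Within the Loxp group itself, the median of Loxp 3 and 4 minus Loxp 1 and 2 was -0.38.

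Both subunits had similar medians. The median difference was 0.35 over the 47 tested large-subunit genes, of which 45 were above 0, and 0.30 over the 29 small-subunit genes, of which 27 were above 0. Before adjustment, 29 of the large-subunit genes (61.7%) and 17 of the small-subunit genes (58.6%) had a p under 0.05 and a higher estimate, against 13.6% of all tested genes, and 0 in either subunit had a lower one, against 13.3%. The difference between the medians was 0.043. Without Loxp 1 it was 0.1093, and with the length and GC trend removed it was -0.000762. In single libraries, the large minus the small median deviation ran from -0.0572 in Cre 5 to 0.067 in Cre 6, with an SD of 0.0518 within groups. That SD is of single libraries, so it does not measure the spread of a difference between groups. Structures of the mammalian ribosome place Mrps30 and Mrps18a in the large subunit, and Mrps36 has been assigned to the oxoglutarate dehydrogenase complex. With that assignment the medians were 0.35 over 49 genes and 0.29 over 26. Against Loxp 1 and 2 the medians by symbol were 0.14 and 0.13, and the median of Loxp 3 and 4 minus Loxp 1 and 2 was -0.41 in the large and -0.36 in the small subunit.

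**Figure D3:**
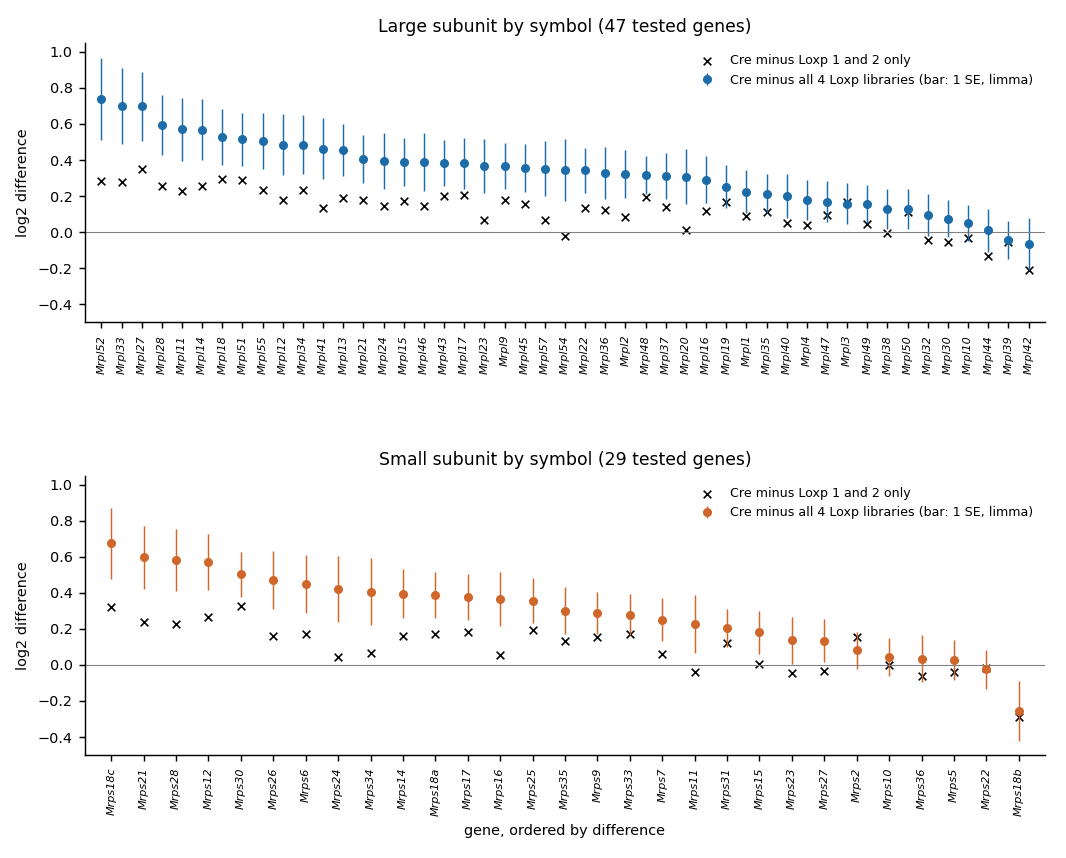
Log2 difference of each tested gene (y), ordered along x, for the large subunit (top) and small subunit (bottom); coloured points are Cre minus all 4 Loxp libraries with 1 SE from limma, and crosses are Cre minus Loxp 1 and 2. The coloured points run from 0.74 for Mrpl52 to -0.26 for Mrps18b, and most crosses lie closer to 0.

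Among proteins of the large subunit, Mrps30, one of those with a small-subunit name, had the smallest p of the family. Its normalized counts were 2123.2, 2300.9, 1712.3 and 1742.5 in Loxp 1 to 4 and 2449.1, 2971.6, 2844.4 and 2842.0 in Cre 5 to 8. The groups did not overlap, with Loxp 3 and 4 lowest. Any gene without overlap has the same exact permutation p, so that p only repeats the lack of overlap. Of all tested genes, 6.06% did not overlap with Cre higher and 7.06% with Cre lower. The permutation p is also not corrected for singling out Mrps30 by its small p. The log2 difference was 0.50 ± 0.12 (SE; 1.42-fold; adjusted p = 0.080 by limma; p = 0.0286 by a two-sided exact permutation test, the smallest that 4 against 4 libraries can give), and 0.33 against Loxp 1 and 2.

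Mrpl27, which has a bacterial counterpart near the site of peptide bond formation, had counts of 2518.8, 2828.4, 1752.1 and 1545.7 in Loxp and 2545.1, 3784.1, 3567.7 and 3902.9 in Cre. Cre 5 lay between Loxp 1 and Loxp 2, so the groups overlapped. The log2 difference was 0.70 ± 0.19 (SE; limma adjusted p = 0.080), and 0.35 against Loxp 1 and 2.

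Mrpl52, a protein without a bacterial counterpart whose upstream sequence is given above, had the largest difference. Counts were 2783.7, 2975.1, 1555.6 and 1511.1 in Loxp and 2674.1, 4056.3, 3344.7 and 4177.6 in Cre. Cre 5 was below Loxp 1 and 2, and Loxp 3 and 4 were close to each other. The log2 difference was 0.74 ± 0.23 (SE; limma adjusted p = 0.086) and 0.29 against Loxp 1 and 2.

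Mrpl14, whose bacterial counterpart lies at the interface of the subunits, had counts of 4087.9, 5058.9, 3316.8 and 2627.1 in Loxp and 5234.8, 5142.0, 6199.6 and 5227.6 in Cre. The groups did not overlap, although Loxp 2 came close to Cre 6. The log2 difference was 0.57 ± 0.17 (SE; limma adjusted p = 0.081). Mrpl28 was 5282.6, 5622.7, 3500.1 and 3326.4 in Loxp and 5500.5, 6815.0, 6995.9 and 6833.9 in Cre, with a difference of 0.59.

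Mrpl51, another protein without a bacterial counterpart, was 11713.4, 12961.9, 8956.6 and 9050.2 in Loxp and 12467.5, 16593.3, 14116.5 and 17534.6 in Cre. Mrpl33 was 2414.3, 3004.1, 1537.4 and 1463.6 in Loxp and 2583.0, 3532.5, 3277.0 and 3807.7 in Cre. Their differences were 0.51 and 0.70. In Mrpl28, Mrpl51 and Mrpl33 alike, Loxp 3 and 4 were lowest and Cre 5 lay between Loxp 1 and Loxp 2.

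Large-subunit genes named for a known role were spread over the range. Mrpl12 was 4891.0, 5570.3, 3541.4 and 3299.8 in Loxp and 4861.6, 6425.4, 5737.7 and 6836.7 in Cre, a difference of 0.49, or 0.18 against Loxp 1 and 2. Its Cre 5 value lay just below Loxp 1. Mrpl3 and Mrpl44, both linked to inherited cardiomyopathy, had 0.16 and 0.0095. Mrpl44 was 2988.5, 2774.1, 2355.5 and 2355.6 in Loxp and 2969.7, 2517.6, 2724.5 and 2318.3 in Cre, overlapping throughout.

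In the small subunit, Mrps12, a protein of the decoding site, had the smallest p. Its counts were 3238.6, 3058.3, 2164.8 and 1943.5 in Loxp and 3449.8, 3710.5, 4004.3 and 3976.1 in Cre. The groups did not overlap, which fixes the permutation p at the value given for Mrps30. The log2 difference was 0.57 ± 0.16 (SE; 1.49-fold; adjusted p = 0.080 by limma; p = 0.0286 by the exact permutation test) and 0.26 against Loxp 1 and 2.

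Mrps21, the gene of highest level per kb, was 8848.0, 8929.3, 5445.1 and 5403.7 in Loxp and 8812.5, 11686.7, 10182.2 and 11607.5 in Cre. Mrps28 was 5746.8, 5158.4, 3310.1 and 3367.1 in Loxp and 5539.1, 6798.4, 6884.3 and 6403.2 in Cre. Both overlapped through Cre 5 and had differences of 0.60 and 0.58. Mrps16, linked to inherited defects of mitochondrial translation, had 0.37, or 0.058 against Loxp 1 and 2.

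The 3 paralogues of Mrps18, related proteins that sit in different places of the ribosome, had these values. Mrps18a, in the large subunit, was 5253.0, 5368.2, 3995.7 and 3873.5 in Loxp and 5939.6, 5500.8, 6616.2 and 5913.7 in Cre, with no overlap and a log2 difference of 0.39 (limma adjusted p = 0.094). Mrps18c was 1063.7, 1144.4, 702.0 and 650.3 in Loxp and 1038.4, 1573.5, 1350.8 and 1640.7 in Cre, with Cre 5 below Loxp 1, and had 0.68 (adjusted p = 0.081). Mrps18b was 989.8, 994.7, 975.5 and 921.2 in Loxp and 1081.1, 779.0, 894.3 and 573.8 in Cre. Its Loxp values were close together and Cre 5 was above all of them. Its estimate of -0.26 was the lowest in the family (limma adjusted p = 0.33). The difference between the paralogues was not tested. Of the exon bases of Mrps18b, 30.5% overlap an antisense gene, and 23.2% of those of Mrps18c overlap another gene on the same strand. The sources used here do not give the strand setting of the counting.

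Besides Mrps30, Mrps12, Mrpl14 and Mrps18a, the genes without overlap were Mrpl21, Mrpl22, Mrpl23, Mrpl48, Mrps9, Mrps17, Mrps31 and Mrps33, singled out after their values were seen. Their differences ran from 0.21 for Mrps31 to 0.41 for Mrpl21, below those of Mrpl52 and Mrpl27, whose groups overlapped. The gap could be narrow: the lowest Cre value of Mrps17 was 3133.7 and its highest Loxp value 3121.7, and for Mrps9 these were 3430.4 and 3423.1. It was wider for Mrpl48, with 5301.7 and 4878.4. Against Loxp 1 and 2 the differences were 0.068 for Mrpl23, 0.13 for Mrpl22 and 0.19 for Mrpl48.

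The other 3 genes with a lower estimate were Mrpl42 (-0.065), Mrpl39 (-0.045) and Mrps22 (-0.025), with unadjusted limma p of 0.66, 0.67 and 0.82. Mrpl42 alternated within the Cre group, with 17033.8, 11045.5, 14987.8 and 11942.2 in Cre 5 to 8, against 15905.2, 15442.4, 12729.5 and 12895.6 in Loxp. Mrps22, linked to inherited mitochondrial disease, stayed between 1283.2 and 1544.3 in all 8 libraries. Mrps36 had a difference of 0.034.

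**Figure D4:**
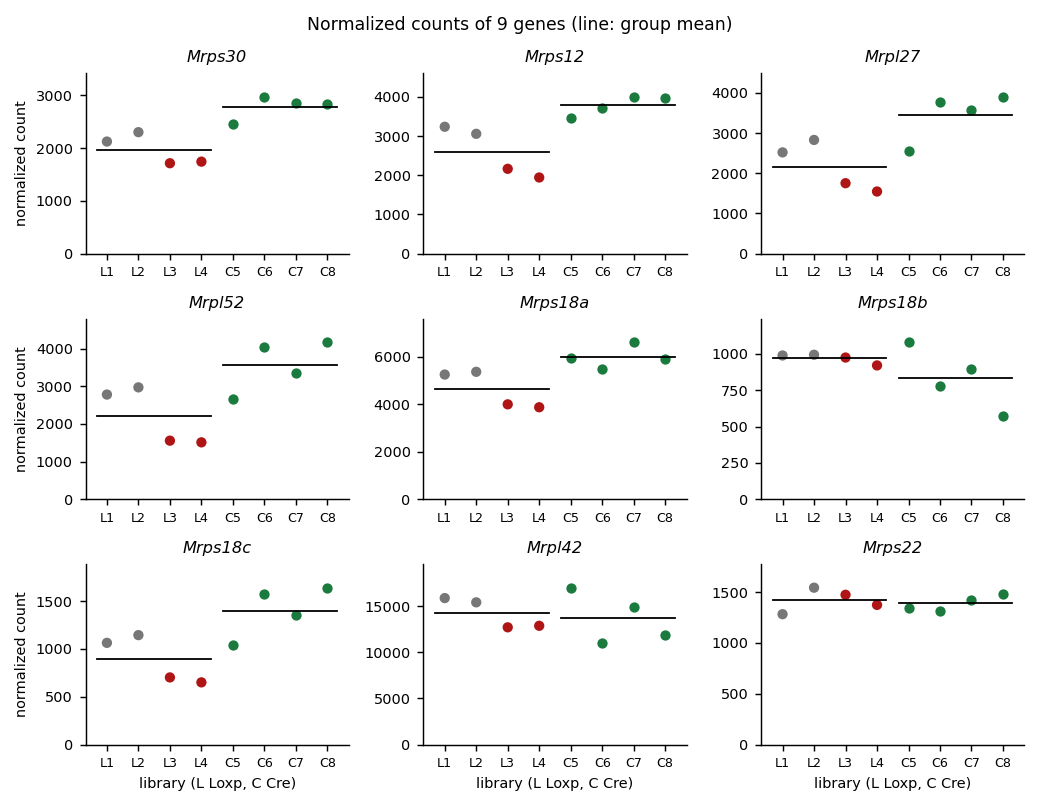
Normalized counts (y, from 0) of 9 genes in the 8 libraries (x; L is Loxp and C is Cre); grey points are Loxp 1 and 2, red points Loxp 3 and 4, green points Cre, and lines are group means. Mrps30, Mrps12 and Mrps18a do not overlap between groups, Mrpl27, Mrpl52 and Mrps18c overlap through Cre 5, and Mrps18b, Mrpl42 and Mrps22 do not show a higher Cre mean.

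Mrpl53 was listed at 0 in all 8 libraries. In the GENCODE annotation of GRCm38, 88.0% of its exon bases lie in another gene on the same strand, Gm42688, whose counts were 3.2 to 15.9. Overlap with another gene touched over 20% of the exon bases of 10 of the 77 genes when either strand is counted, including 77.8% for Mrps34 and 69.8% for Mrps25, so their counts are uncertain.

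Features that the choice did not use were set beside the differences as descriptions. Across the 76 genes the difference had a Spearman correlation of -0.30 with exon length, against -0.41 over the 15576 tested genes with a length. Points in both share the same 8 libraries. Loxp 3 and 4 minus Loxp 1 and 2 had 0.46 with exon length, and Cre minus Loxp 1 and 2 had -0.086. The median difference was 0.36 for the 13 tested genes with an NRF1 match and 0.33 for the 54 without, 0.39 for the 24 with an ETS match and 0.29 for the 43 without, and 0.27 for the 8 with a YY1 match and 0.36 for the 59 without.

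The rest of the mitochondrial translation system had estimates in both directions. The lists also differed in median exon length. It was 2394 bases for the tested Mrp genes, 2913 for ribosomal proteins under other names, 3777 for assembly factors and 3868 for translation factors. For genes charging tRNAs it was 5173.5, for regulators 5186, for the mitochondrial messenger RNAs 784 and for the mitochondrial ribosomal RNAs 1268.5. The part of length in the differences between lists was not tested. Of the 6 ribosomal proteins under other names, 5 had a higher estimate. The median over the 6 was 0.42, or 0.12 against Loxp 1 and 2. The 5 were Gadd45gip1 0.50, Chchd1 0.47, Aurkaip1 0.44, Ict1 0.41, which releases stalled peptides, and Dap3 0.33. In each of these 5, Loxp 3 and 4 were lowest. Ptcd3, an RNA-binding protein of the small subunit, was 4087.1, 4479.1, 5429.6 and 5748.4 in Loxp and 3604.8, 3864.1, 4017.9 and 3822.3 in Cre. All 4 Cre values were below all Loxp values, with a log2 difference of -0.35 (limma adjusted p = 0.098), and here Loxp 3 and 4 were highest.

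Assembly factors had a higher estimate in 20 of 25, with a median of 0.18 and 0 called; Ngrn had 0.48 and Mettl15, which methylates the small-subunit ribosomal RNA, -0.57. For translation factors, 5 of 15 tested genes had a higher estimate, and the median was -0.067. Tsfm, the exchange factor of the elongation factor Tufm, had 2181.2, 2127.0, 1356.7 and 1403.2 in Loxp and 2357.1, 2863.2, 2610.9 and 2904.4 in Cre, no overlap and a difference of 0.63 ± 0.16 (SE; limma adjusted p = 0.080). Taco1, an activator of COX1 translation, had -0.24. Of 20 genes for charging mitochondrial tRNAs, 17 of them synthetases and 3 (Qrsl1, Gatb and Gatc) subunits of the amidotransferase that makes glutaminyl-tRNA, 10 had a higher estimate and the median was -0.0069; Tars2 had 0.31 and Iars2 -0.47. Of 12 regulators, 5 had a higher estimate and the median was -0.057. Esrra, a nuclear receptor of oxidative metabolism, had 0.36, or 0.077 against Loxp 1 and 2, and was lowest in Loxp 3 and 4. Tfb2m, a mitochondrial transcription factor, had -0.35, or -0.20 against Loxp 1 and 2, and was highest in Loxp 3 and 4. Against Loxp 1 and 2, the medians were 0.060 for assembly factors, -0.011 for translation factors, 0.028 for genes charging tRNAs and -0.0012 for regulators. None of these lists held a gene with an adjusted p under 0.05 by limma.

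The ribosomal RNAs mt-Rnr1 and mt-Rnr2 had differences of 0.046 and 0.10, with adjusted p of 0.87 and 0.63 by limma. The 13 messenger RNAs all had a lower estimate, with a median of -1.01 and 0 called. Their share of all counts was 7.25, 6.15, 10.5 and 9.44% in Loxp 1 to 4 and 7.09, 3.09, 5.93 and 2.30% in Cre 5 to 8. Cre 6 and 8 were lowest, and Loxp 3 and 4, in which the ribosomal proteins were lowest, were highest. COX1 had -1.01 (adjusted p = 0.081), or -0.66 against Loxp 1 and 2.

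**Figure D5:**
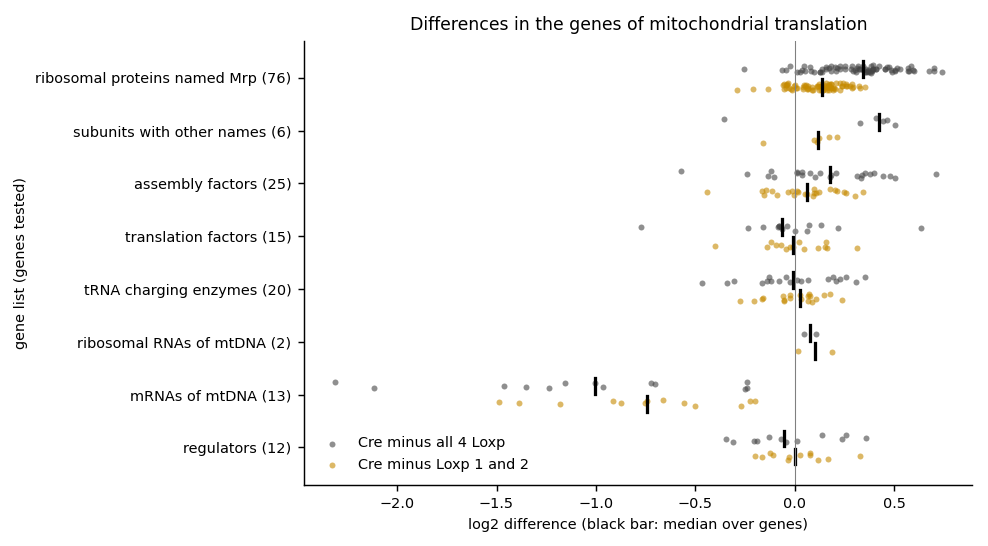
Log2 differences (x) of the genes in each list (y, with the number tested); grey points are Cre minus all 4 Loxp libraries, yellow points are Cre minus Loxp 1 and 2, and black bars are medians. The ribosomal protein genes have medians of 0.34 and 0.14, and the messenger RNAs of mitochondrial DNA -1.01 and -0.74.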

How the data were processed

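RNA sequencing of 8 libraries was analysed. The submitters' processing notes name DESeq2, HTSeq, STAR, FastQC and cutadapt, and the build GRCm38. Versions, settings, annotation and strand setting: not given in the sources used here. Norgen Biotek reagents were used for extraction and NEB Next Ultra II for the libraries, per the labels' protocols. Values were deposited as log2. With the log2 undone and 1 subtracted they were whole multiples of 1 step per library: of values up to 1000 reads, 100% lay within 0.1 of a whole read. These are called normalized counts, and reads were recovered from them. The count test foreseen for raw counts was not the main test. limma voom on the recovered reads was an alternative.

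The test was limma (version 3.58.1, R 4.3.3), with the trend and robust options and Benjamini-Hochberg adjusted p under 0.05. It was applied to log2(normalized count + 1) of the 15657 genes whose normalized counts averaged 10 or more, and fold changes refer to this scale. Chi-square per gene between replicates was 32.7 to 241.8 over the 12 pairs, so no pair agreed within counting noise and none was merged. This does not show that the libraries come from different animals. Exon lengths and overlaps came from GENCODE vM21, and upstream windows from RefSeq. The script was tested on simulated data. Alternatives were other pseudocounts, filters, scalings, variance models, voom, libraries left out, and removal of a length and GC trend (loess, span 0.5).

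The members and lists were chosen with earlier results of these data known. Named genes were the 8 of smallest p, those with a lower estimate, the 5 highest and 5 lowest per kb, the 3 of largest spread and 11 of known role, and, per pathway list, the gene of smallest p in each direction and all genes of lists of 6 or fewer. Mrps34, Mrpl45, Mrpl30, Gm42688, the fibre markers and the other genes without overlap were named after their values were seen. Tables and plots used Python 3.11.15, pandas 2.3.3 and matplotlib 3.10.9.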

Additional observations from a re-analysis of the deposited data

Results flagged for a closer look

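In 130 groups of 4 values checked, 5 held 1 library far from the other 3 (a gap past Dixon's 95% critical value). Chance flags about 1 in 20 groups. Mrpl14 was 6199.6 in Cre 7, with 5142.0 to 5234.8 in the other Cre libraries. Mrpl28 was 5500.5 in Cre 5, with 6815.0 to 6995.9 in the others. Heart markers were 0.018232% of counts in Cre 8, with 0.0017788 to 0.0026807% in the other Cre libraries. Brown adipocyte markers were 0.0009789% in Loxp 3, with 0.00032586 to 0.00043679% in the other Loxp libraries. Fibroadipogenic markers were 0.24027% in Loxp 1, with 0.19482 to 0.19803% in the others.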

How the results depend on the processing

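No paired analysis was possible because the groups share no replicate number. The number of ribosomal protein genes called was 0 with all 8 libraries, 15 with array weights, and 0 to 30 with 1 library left out: 23 without Loxp 1 and 30 without Loxp 2, all higher, where 5.54% and 6.54% of all tested genes were called higher. The other settings called 0. The median difference was 0.2565 to 0.4221 with 1 library left out, 0.1369 without Loxp 3 and 4, 0.2278 with the length and GC trend removed and 0.1065 with both. Large minus small subunit was 0.043, 0.01397 to 0.1093 with 1 library left out (highest without Loxp 1), -0.000762 with the trend removed and -0.01215 with the trend removed and without Loxp 3 and 4. The cause was not tested.

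Of 560 values of named genes under alternatives, 498 kept direction and side of the threshold, 41 passed it and 21, from 7 genes, changed sign. With 1 library left out, Mrps22 ranged from -0.07215 to 0.01688, Mrpl39 from -0.08173 to 0.01033, Mrpl42 from -0.1751 to 0.03322, Mrpl44 from -0.05049 to 0.07563 and Mrps36 from -0.06331 to 0.141. Without Loxp 3 and 4, Mrpl44 was -0.1353, Mrpl54 -0.0198 and Mrps36 -0.06153. With the trend removed, Mrpl2 was -0.0008542, Mrpl44 -0.1943, Mrpl54 -0.04805 and Mrps36 -0.1224. With both, these were -0.02382, -0.196, -0.1628 and -0.09768. Tested members had at least 549.9 normalized counts in every library. The size of counting error beside the spread between replicates was not tested for single genes.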
